A study of Mus musculus with 48 samples.

Results

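The Trem receptor locus of the mouse was examined for acetylation of histone H3 at lysine 27 (H3K27ac), a mark of active promoters and enhancers, in macrophages and monocytes sorted from infarcted and sham-operated hearts. It comprised 7 genes of the 21938 protein-coding genes annotated. These were the receptors Trem1, Trem3, Treml4, Treml2, Trem2 and Treml1, which lie side by side on chromosome 17, and the adaptor Tyrobp on chromosome 7. The members were chosen by the higher H3K27ac counts seen over the cluster in MI than in sham libraries at P10 day 3, so that comparison is given here as a description, with no test. The cluster with 50 kb on each side was divided into 48 bins of 5 kb, out of 500949 bins of the genome that held a read pair.

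The receptors of this family are single-span membrane proteins with an immunoglobulin-like domain that sit on monocytes, macrophages and neutrophils. Most of them have no signalling motif of their own and pair in the membrane with TYROBP (also called DAP12), whose ITAM motif recruits the kinase SYK. TREM1 is known as an amplifier of inflammatory responses in monocytes and neutrophils, and TREM2 as a receptor for lipids and apolipoproteins on tissue macrophages that clear dying cells.

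Single-cell CoBATCH, a tagmentation form of ChIP-Seq, had been run on CD45+ F4/80+ cells of C57BL/6 mice, and each library here pooled the cells of 1 zone. Surgery was done at postnatal day 1 (P1) or 10 (P10), either as myocardial infarction (MI), with the left anterior descending artery tied off, or as a sham operation, and hearts were taken 3 or 7 days later. Hearts were cut into 3 zones, the infarct (IZ), its border (BZ) and the remote myocardium (RZ), with the same zone names given to sham hearts. The 42 libraries fell into 24 groups of age, surgery, day and zone, with 2 libraries per group except at P1 day 3, where each group had 1. The surgery of each library is that of its title, since the treatment label named MI for every sample. Zones with the same age, day, surgery and number were taken as 1 pool of hearts. As a model the groups were limited by pooling: the zones of several hearts went into each library, sex was not determined, and a group held at most 2 libraries, so p-values measured only the spread between these libraries.

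Libraries held 48044 to 1008148 unique read pairs, with a median of 410426. In the 18 libraries numbered 2, 7.30 to 29.6% of these were reads whose mate was not in the file, each counted as a pair, and the other libraries had none. Ptprc and Adgre1, which encode the sort markers, and the macrophage genes Csf1r, Cd68 and Fcgr1 had pairs in every library. The cardiomyocyte genes Myh6 and Tnnt2 were at 0 in 9 and 7 libraries. Of the other genes of non-leukocytes, Col4a1 and Kdr, both marked in endothelial cells, had pairs in every library, at means of 60.6 and 40.3 CPM, and Igfbp7, Col1a1 and Pdgfra were at 0 in 3, 5 and 6 libraries. CPM are read pairs scaled to 1e+06 unique pairs of the library, counted over a gene with 10 kb on each side unless stated otherwise. A pair in every library does not by itself show the mark, since a long window collects pairs at a low level. Per kb of window, mean CPM was 8.33 for Cd68, 5.96 for Csf1r, 3.25 for Fcgr1 and 2.01 for Ptprc. The genes of non-leukocytes lay between 0.20 (Tnnt2) and 0.61 (Kdr). Adgre1, at 0.69, was close to Kdr, so these counts do not settle whether it was marked. Limits set by a count of 0 cover counting error only, since no molecular identifiers are described for these reads and copies made by PCR are not independent.

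In GRCm38 coordinates, all 7 genes are on the plus strand. Trem1 spans chr17:48232768-48246924, Trem3 chr17:48247777-48258841, Treml4 chr17:48264295-48275360, Treml2 chr17:48299498-48312533, Trem2 chr17:48346401-48354147 and Treml1 chr17:48359916-48367176, and Tyrobp spans chr7:30413760-30417585. The cluster runs over 134 kb. B430306N03Rik, which is not a member, lies between Treml2 and Trem2. The Treml2 window, which ends at chr17:48322533, holds its start, so part of the Treml2 count lies in B430306N03Rik. The windows of Trem1 and Trem3 shared 19148 bp, those of Trem3 and Treml4 14547 bp and those of Trem2 and Treml1 14232 bp, so neighbouring members share read pairs and are not independent. The Tyrobp window holds the whole of Hcst, which encodes the adaptor DAP10.

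Sequences are shown from the 5 kb bins with the largest differences or levels of the locus, or from the starts of its genes. They are the RefSeq GRCm38.p6 plus strand, with transcribed untranslated bases left out. For Trem1, Treml4 and Trem2, the 250 bp before the RefSeq start site are given. For Trem3, Treml2 and Trem2, the stretch is the 300 bp window with the most pairs in a named 5 kb bin, centred shortly before the Trem3 start, 990 bp after the Treml2 start and 811 bp after the Trem2 start. Of the Treml2 window, 112 bp remained, and the window of B430306N03Rik, all of it untranslated, is not shown. Nor is that of the Trem1 bin, centred 2227 bp before the Trem1 start. Windows were chosen by their pairs over all libraries and not by their difference. At P10 day 3 the Trem3 window had mean CPM of 2.49 in MI and 0.99 in sham, and the whole Treml2 window 3.84 and 1.74. Of the members, 4 of 7 had an entry in the promoter table, and Trem3, Treml2 and Tyrobp did not. Capitals mark the AP-1 motif.
Trem1 upstream, chr17:48232489-48232738: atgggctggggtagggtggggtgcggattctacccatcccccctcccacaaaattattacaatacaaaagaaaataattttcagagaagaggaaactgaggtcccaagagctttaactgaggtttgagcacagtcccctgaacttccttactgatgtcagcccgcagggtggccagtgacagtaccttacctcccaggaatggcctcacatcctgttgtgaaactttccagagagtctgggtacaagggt
Trem3 upstream window, chr17:48247245-48247544: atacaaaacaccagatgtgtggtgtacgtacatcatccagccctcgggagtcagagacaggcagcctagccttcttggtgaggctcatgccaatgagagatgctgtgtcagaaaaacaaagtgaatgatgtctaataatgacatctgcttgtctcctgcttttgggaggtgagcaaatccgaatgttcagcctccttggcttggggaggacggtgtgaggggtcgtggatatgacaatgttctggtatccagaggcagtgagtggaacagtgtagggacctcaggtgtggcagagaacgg
Treml4 upstream, chr17:48264045-48264294: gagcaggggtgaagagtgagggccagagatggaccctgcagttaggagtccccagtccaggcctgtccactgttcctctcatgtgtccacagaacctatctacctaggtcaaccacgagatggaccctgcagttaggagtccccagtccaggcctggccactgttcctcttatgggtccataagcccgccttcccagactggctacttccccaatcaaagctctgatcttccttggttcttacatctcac
Treml2 window in the gene, chr17:48300527-48300638: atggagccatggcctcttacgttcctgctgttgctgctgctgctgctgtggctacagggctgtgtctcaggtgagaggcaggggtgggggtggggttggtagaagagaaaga
Trem2 upstream, chr17:48346151-48346400: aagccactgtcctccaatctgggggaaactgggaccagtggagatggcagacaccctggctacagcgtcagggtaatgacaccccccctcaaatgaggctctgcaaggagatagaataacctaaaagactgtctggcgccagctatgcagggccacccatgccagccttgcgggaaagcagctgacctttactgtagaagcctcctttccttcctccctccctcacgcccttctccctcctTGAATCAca
Trem2 window in the gene, chr17:48347063-48347362: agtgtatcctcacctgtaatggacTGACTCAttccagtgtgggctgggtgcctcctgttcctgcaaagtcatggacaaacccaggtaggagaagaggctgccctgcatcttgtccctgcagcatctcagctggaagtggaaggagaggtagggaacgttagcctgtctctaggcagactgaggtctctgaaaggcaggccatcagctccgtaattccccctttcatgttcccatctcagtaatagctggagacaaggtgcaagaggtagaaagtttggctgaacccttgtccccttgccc

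Both strands were searched for PU.1 (GAGGAAGT), AP-1 (TGANTCA) and C/EBP (TTGCNNAA) motifs. The Trem2 upstream stretch held 1 AP-1 match, and the Trem2 window held another. The other 4 stretches had no match to any of the 3 motifs, which says only that these letters are not in these windows. Among 25068 regions of 300 bp taken in the same way, 10.2% held the AP-1 motif, 5.84% the PU.1 motif and 9.97% the C/EBP motif. Among 32851 promoters the shares were 7.81%, 3.20% and 10.8%. A match is a description and not a site. The counts behind a 300 bp window were small, with 27 pairs over all libraries in the Trem3 window, 37 in the Treml2 window and 52 in the Trem2 window.

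At P10 day 3, H3K27ac over the receptor cluster was higher in MI than in sham libraries, in both numbered sets and in all 3 zones. Taken over the cluster with 10 kb on each side, MI libraries ranged from 175 to 679.9 CPM with a median of 331, and sham libraries from 77.5 to 240.1 CPM with a median of 174 (n = 6 each). The means were 366 ± 188 and 167 ± 62.3 CPM (SD), a ratio of 2.19. MI was higher in 6 of 6 pairs of the same zone and number, although the groups overlapped. The 6 libraries of each surgery came from the 3 zones of the pools of hearts numbered 2 and 3, so they are not 6 independent replicates. A pair here matches zone and number only, and whether equal numbers pair the samples at P10 is not settled. Pair by pair, the IZ libraries gave 234 CPM in MI against 219.6 in sham for number 2 and 679.9 against 193 for number 3. In BZ they gave 420.5 against 240.1 and 446 against 156. In RZ they gave 241 against 77.5 and 175 against 117. RZ was the lowest zone in both sham sets and in number 3 of MI, and IZ was the lowest in number 2 of MI. By number, the ratio of means was 1.67 for number 2 and 2.79 for number 3, and by zone it was 2.22 in IZ, 2.19 in BZ and 2.14 in RZ. In bulk counts, fewer cells carrying the mark and less mark per cell cannot be told apart.

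**Figure D1:**
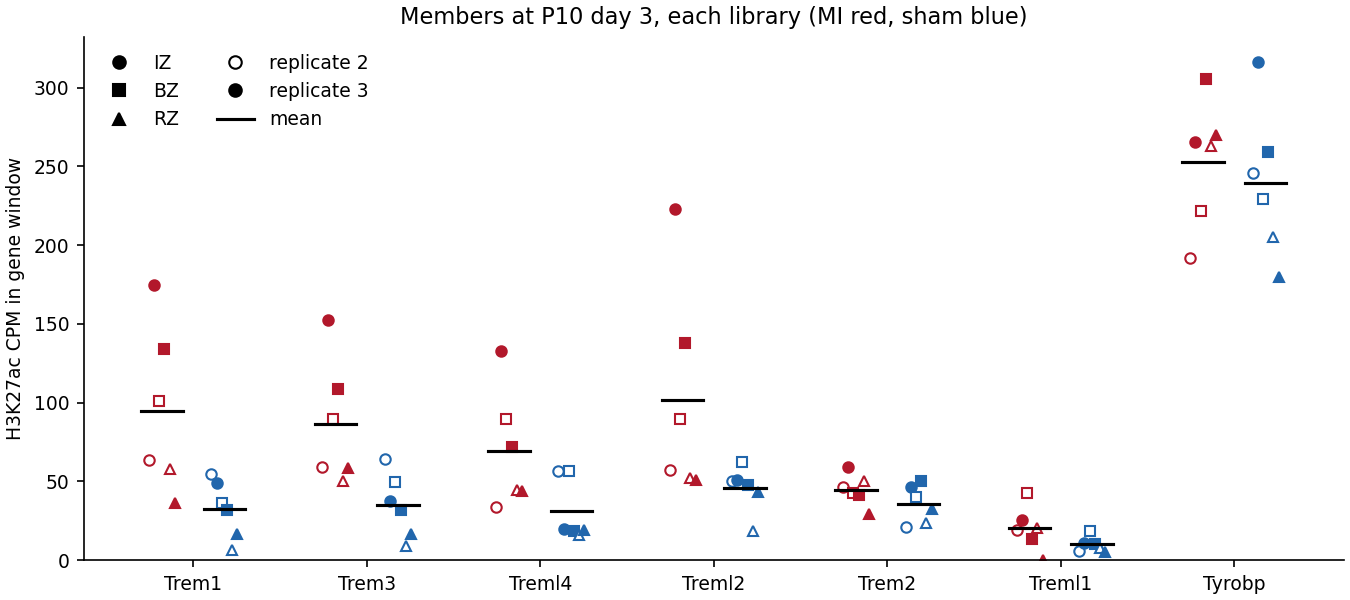
H3K27ac CPM (vertical axis, linear) of each member at P10 day 3, with 1 point per library (MI red, sham blue), zones by shape, numbers by filling and means as bars. The Trem1 means are 94.6 CPM in MI and 32.4 in sham, while those of Tyrobp, 253 and 239, are close together.

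Among the members, the difference was large over Trem1, Trem3, Treml4 and Treml2, smaller over Trem2 and near 0 over Tyrobp. Trem1, the inflammatory amplifier at the left end of the cluster, ranged from 36.5 to 175 CPM in MI (median 82.3) and from 6.57 to 54.9 CPM in sham (median 34.1), 2.92 times as high on the means. It was higher in MI in 6 of 6 pairs, as was Treml2. Of all 14996 gene windows tested, 2.56% were higher in MI in 6 of 6 pairs. Treml2, whose product is found on several leukocytes and is not known to need TYROBP, ranged from 51.0 to 223 CPM in MI (median 73.3) and from 18.4 to 62.4 CPM in sham (median 48.9), a ratio of 2.24.

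Trem3, a mouse receptor that pairs with TYROBP, had means of 86.4 ± 39.2 and 34.7 ± 20.4 CPM and was higher in MI in 5 of 6 pairs. Treml4, a receptor of myeloid cells, had means of 69.3 ± 37.3 and 31.0 ± 19.7 CPM and was also higher in 5 of 6 pairs. The numbered sets stood apart, with a ratio of 1.31 for number 2 and 4.32 for number 3 for Treml4, and of 1.62 and 3.73 for Trem3. For Trem1 the ratios were 2.27 and 3.57, and for Treml2 1.52 and 2.90. In IZ of number 2, Trem3 and Treml4 were higher in sham, at 64.1 against 59.1 CPM and 56.4 against 33.8 CPM.

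Trem2 ranged from 29.2 to 59.2 CPM in MI (median 44.6) and from 21.4 to 50.2 CPM in sham (median 36.3), with a ratio of 1.26 and 4 of 6 pairs higher in MI. Number 2 gave a ratio of 1.64 with 3 of 3 pairs higher in MI, and number 3 gave a ratio of 1.00 with 1 of 3. Treml1, whose product is stored in platelet granules, had the fewest pairs, a mean of 5.67 per library, and gave 20.2 ± 14.1 CPM in MI and 9.98 ± 4.90 in sham. The adaptor Tyrobp ranged from 192 to 305 CPM in MI (median 264) and from 179.6 to 316 CPM in sham (median 238), with 3 of 6 pairs higher in MI. On the log2 scale the fitted differences were 1.75 (SE 0.41) for Trem1, 1.43 (SE 0.37) for Trem3, 1.05 (SE 0.39) for Treml4 and 1.08 (SE 0.38) for Treml2. They were 0.49 (SE 0.36) for Trem2, 0.64 (SE 0.54) for Treml1 and 0.11 (SE 0.23) for Tyrobp. The median over the 7 members was 1.05 on this scale, and over all gene windows it was -0.05.

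Divided into 5 kb bins, the difference was spread along the cluster and was largest in CPM at a few places. Mean CPM was higher in MI in 27 of the 28 bins of the cluster (25 to 28 when 1 library was left out), and 43% of all bins with a pair were higher in MI. Of the 12 cluster bins that averaged 3 pairs or more per library, 11 were higher in MI, against 50.3% of such bins in the genome. Summed over the 28 bins, the mean was 359.9 CPM in MI and 164 CPM in sham. Of this difference, 51.3% came from 5 bins.

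The bin with the largest difference over the 6 pairs, 44.8 ± 33.3 against 16.1 ± 9.32 CPM, lay at chr17:48320001-48325000 in B430306N03Rik, between Treml2 and Trem2, and gave 14.6% of the sum. Its ratio was 1.76 for number 2 and 4.21 for number 3, and its first place was not held in number 2, where it differed by 14.4 CPM against 20.99 at the Trem1 start, nor without MI BZ replicate 3. The bin at the Trem1 start, chr17:48230001-48235000, gave 13.0%, with 32.1 ± 20.3 CPM in MI and 6.69 ± 5.07 in sham. Next came a bin inside Treml2 at chr17:48300001-48305000, with 30.9 ± 23.2 and 13.1 ± 4.09 CPM and a ratio of 1.34 for number 2 and 3.48 for number 3. In this bin MI IZ replicate 3 read 73.4 CPM and the other 5 MI libraries 14.6 to 42.5, and without that library the difference was 9.33 CPM in place of 17.8, below the 15.4 CPM at the Trem3 start. The bin at the Trem3 start, chr17:48245001-48250000, had 22.5 ± 11.02 and 6.52 ± 5.48 CPM. The bin before and at the Treml4 start, chr17:48260001-48265000, had 21.9 ± 11.2 and 9.29 ± 6.69 CPM. The ratio of the Treml4 bin was 1.18 for number 2 and 4.90 for number 3, and in number 2 it ranked 16 by difference among the cluster bins. Close behind it, with a difference of 12.3 against 12.6 CPM, was the bin at the B430306N03Rik start, chr17:48315001-48320000. This bin had 24.2 ± 12.0 and 11.8 ± 6.56 CPM, ratios of 1.86 for number 2 and 2.17 for number 3, and rank 5 in number 2. MI was higher in 6 of 6 pairs in the bins at the Trem1 start, in Treml2 and at the Trem3 start. It was higher in 5 of 6 at the Treml4 start and at the B430306N03Rik start, and in 4 of 6 in the bin with the largest difference. At the Trem1 start the MI libraries read 7.29, 19.0, 20.5, 37.2, 46.7 and 62.1 CPM and the sham libraries 0, 2.72, 5.28, 8.85, 9.15 and 14.1 CPM, so 5 of the 6 MI libraries were above every sham library and RZ number 3, from 137158 pairs, was not.

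The bin at the start of Trem2 was the 1 bin of the cluster with a lower mean in MI. Its bin at chr17:48345001-48350000 had 22.5 ± 5.99 CPM in MI and 25.2 ± 11.7 in sham, with 3 of 6 pairs higher in MI and a ratio of 1.21 for number 2 and 0.74 for number 3. Without sham BZ replicate 3, which read 42.3 CPM there, all 28 bins of the cluster had a higher mean in MI. The fitted log2 difference of the Trem2 start bin was 0.08 (SE 0.41), so its lower mean was not a steady direction. This bin was among the 5 highest of the region over all 24 groups, at a mean of 21.5 CPM. The highest bin of the region was not in the cluster but at the start of Nfya, which encodes a transcription factor subunit, with 35.3 CPM over all groups and 32.9 ± 15.4 against 38.6 ± 9.21 CPM at P10 day 3. Within 1 kb of the start sites, the Trem1 site had 15.8 ± 11.9 CPM in MI and 3.12 ± 1.97 in sham, the Trem3 site 11.52 ± 7.05 and 4.18 ± 5.81, the Treml4 site 12.0 ± 5.03 and 6.19 ± 5.50 and the Treml2 site 8.56 ± 9.89 and 3.30 ± 2.70. The Trem2 start site had 12.7 ± 7.09 and 15.9 ± 7.43 CPM, the Treml1 site 0.92 ± 1.70 and 0.65 ± 1.12, and the Tyrobp site 53.0 ± 10.8 and 47.8 ± 11.8. Both AP-1 matches printed above lie in the bin of the Trem2 start.

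**Figure D2:**
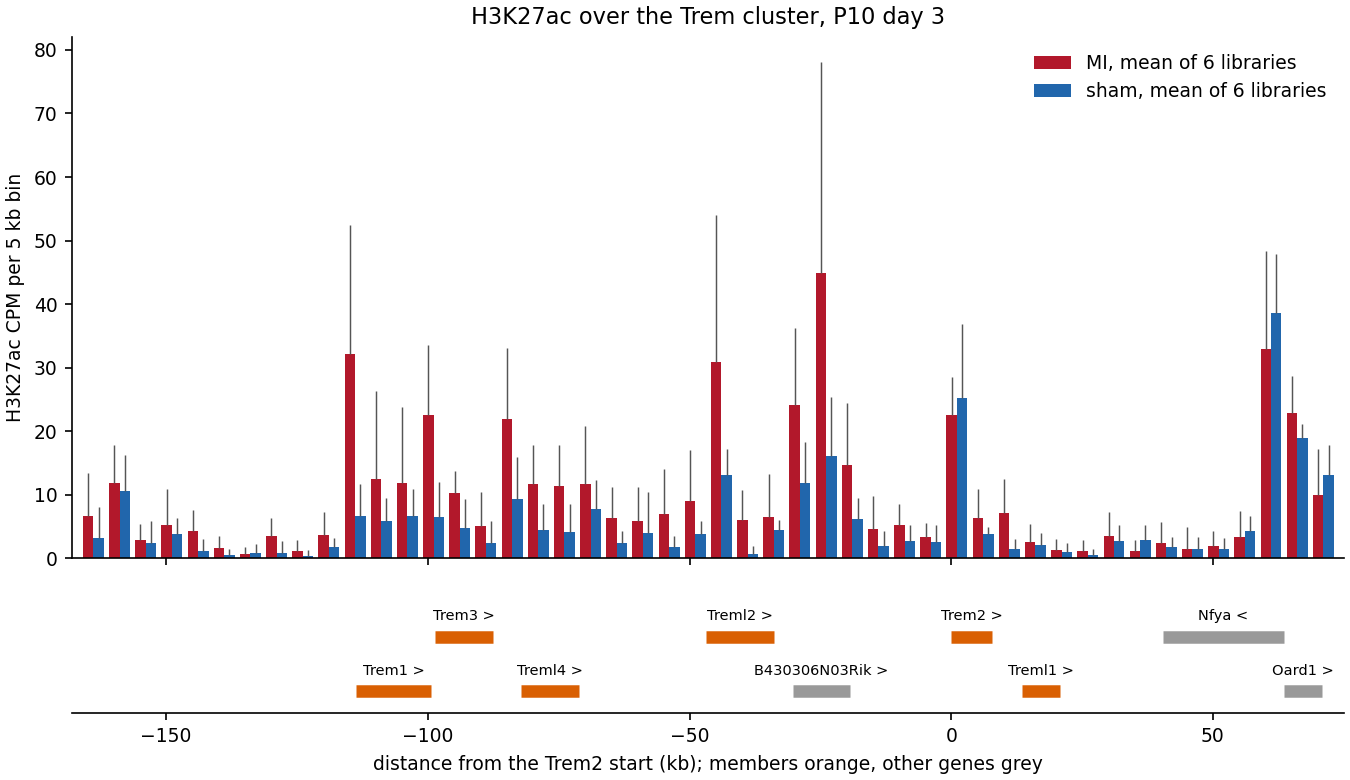
Mean H3K27ac CPM per 5 kb bin (vertical axis, linear) against distance from the Trem2 start in kb, for the 6 MI (red) and 6 sham (blue) libraries of P10 day 3, with upper SD lines and the genes drawn below. Red bars stand above blue ones from Trem1 to B430306N03Rik, while the Trem2 start (22.5 and 25.2 CPM) and the Nfya start (32.9 and 38.6 CPM) are lower in MI. The mean at the Trem2 start is not lower in MI without sham BZ replicate 3.

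Markers of other cell types were read in the same libraries. The summed CPM of a list of monocyte and granulocyte genes (S100a9, S100a8, Lcn2, Cd177 and Wfdc21) ranged from 164 to 674 in MI at P10 day 3 (median 272) and from 119.6 to 199 in sham (median 142). All 5 of its genes had a fitted difference above 0. In the 6 MI libraries it stood beside the cluster as 674 with 679.9 CPM, 426 with 446, 354 with 420.5, 189.9 with 234, 182 with 175 and 164 with 241, so the 3 libraries high in one were high in the other. Its part in the cluster's difference was not tested. A list of resident macrophage genes (Lyve1, C1qa, Mgl2, Fcrls and Cbr2) ranged from 101 to 649 CPM in MI (median 369) and from 210.5 to 756 in sham (median 499.7). The 5 sort marker and macrophage genes summed to 965 ± 216 and 969.9 ± 145 CPM, and 7 genes of non-leukocytes to 166 ± 55.7 and 157 ± 14.9 CPM. A platelet and megakaryocyte list (Pf4, Ppbp, Itga2b, Gp9 and Gp1ba) gave 177 ± 20.4 and 205 ± 45.7 CPM. Ly6c-low monocyte genes other than Treml4 gave 333 ± 59.5 and 319 ± 79.1 CPM, classical monocyte genes 116 ± 30.8 and 94.1 ± 20.6 CPM, and Arg1 macrophage genes other than Trem2 191 ± 28.7 and 145 ± 20.8 CPM. The parts of these lists were not tested either.

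**Figure D3:**
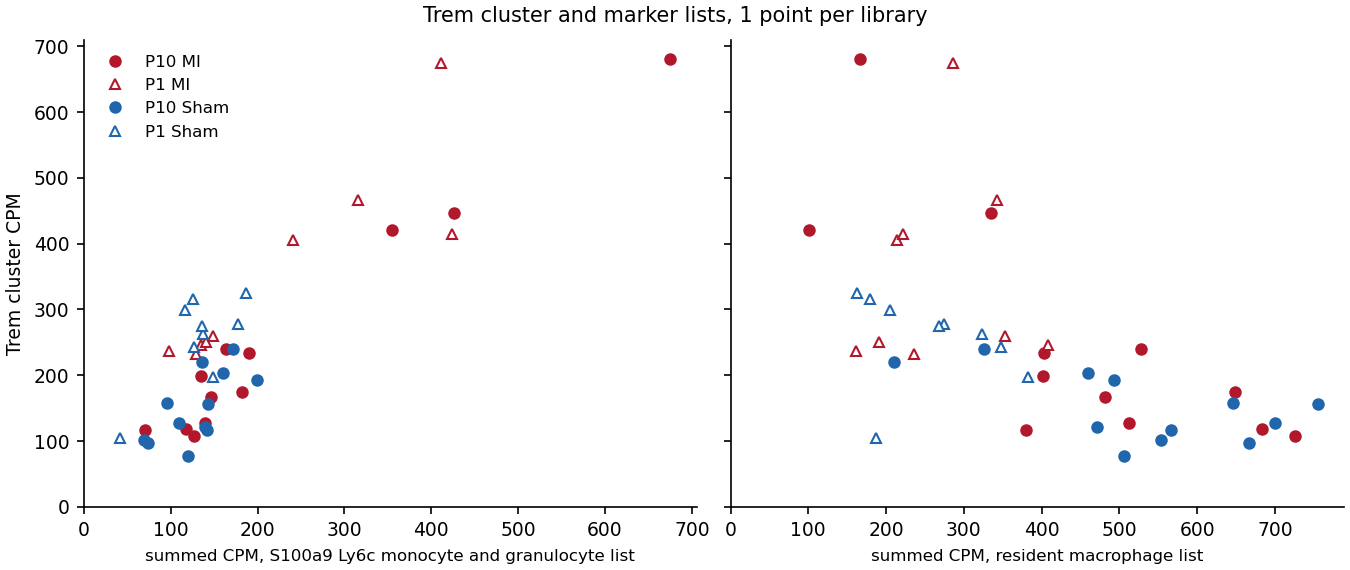
Trem cluster CPM (vertical axis) against the summed CPM of the monocyte and granulocyte list (left) and of the resident macrophage list (right), with 1 point per library, P10 filled, P1 open, MI red and sham blue. The IZ library number 3 of P10 MI day 3 stands at 674 and 679.9 CPM on the left.

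At P10 day 7 the MI and sham libraries had nearly the same means over the cluster. MI libraries ranged from 108 to 199 CPM (median 123) and sham libraries from 96.7 to 203 CPM (median 124.7), with means of 139.6 ± 35.8 and 135 ± 39.95 CPM. The log2 differences lay between -0.26 (Treml1, 95% interval -1.57 to 1.05) and 0.37 (Trem1, -0.59 to 1.33). With limma voom, which fits all libraries in 1 model with Benjamini-Hochberg adjustment over 14996 windows, 0 of 7 members were called at an adjusted p of 0.05, as were 0% of all windows. None had an unadjusted p under 0.05 by limma voom or limma-trend, which also called 0. Over all windows the unadjusted share was 1.15% by limma voom and 0.560% by limma-trend. The upper limits of the 95% intervals were 0.83 for Trem3, 0.76 for Treml4, 1.28 for Treml2, 0.77 for Trem2 and 0.39 for Tyrobp. Whether the difference at day 3 and that at day 7 differed was not tested. The monocyte and granulocyte list summed to 123 ± 27.6 and 108 ± 36.0 CPM at day 7.

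In hearts operated at P1, MI and sham libraries overlapped over the cluster at both days. At P1 day 3, with 3 libraries per surgery and 1 per zone, MI read 246, 259.6 and 406 CPM and sham 197, 263 and 277 CPM, and 1 of 3 zones was higher in MI, the IZ. The log2 differences lay between -0.18 (Trem1, SE 0.51) and 1.03 (Treml1, SE 0.66), and 5 of 7 were above 0. Of the members 0 were called, as were 0% of all windows, and none had an unadjusted p under 0.05 by limma voom or limma-trend. With 1 library per group, the spread behind these values came from the other groups. The 3 libraries of each surgery carried the same number and were taken as zones of 1 pool of hearts.

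At P1 day 7, MI libraries ranged from 232 to 675 CPM (median 333) and sham libraries from 104 to 326 CPM (median 287), and 4 of 6 pairs were higher in MI. The numbered sets differed. Number 1 of MI read 232, 236 and 251 CPM from 262732 to 634341 pairs, and number 2 read 415, 467 and 675 CPM from 72874 to 108390 pairs, which is 34 to 59 pairs over the cluster. Against sham, the ratio of means was 0.97 for number 1 and 1.90 for number 2. The monocyte and granulocyte list moved with the number as well, from 97.7 to 141 CPM in number 1 of MI and from 316 to 424 CPM in number 2. So did Tyrobp, outside the cluster, with means of 168 and 367 CPM, and the share of pairs that fell in enriched bins of the genome (at least 4 times the mean of covered bins), from 35.6 to 43.2% in number 1 of MI and from 58.0 to 66.1% in number 2. In the sham libraries that share was 35.6 to 42.7% in number 1 and 52.1 to 59.8% in number 2. The part of these in the Trem values was not tested. The log2 differences lay between -0.60 (Trem2, SE 0.48) and 0.54 (Trem1, SE 0.44). Their median was 0.04 by limma voom and 0.28 by limma-trend. By either tool 0 of 7 members and 0% of all windows were called, and 0 members had an unadjusted p under 0.05. Over all windows that share was 2.59% by limma voom and 4.33% by limma-trend. The replicate number was taken to pair these samples, and the fitted values given so far leave this pairing out. With the number as a block, 0 members were called. Trem1, Treml2 and Tyrobp, 3 of 7, had an unadjusted p under 0.05 by limma voom in that fit, as had 10.3% of all windows. The median over the members was 0.37 there, against -0.06 over all windows. The BZ and RZ libraries numbered 1 shared 1 flow cell between MI and sham, so for these flow cell and surgery cannot be told apart. Without sham IZ replicate 2 the difference was 1.24 for Trem1 and -0.045 for Trem2, and without sham IZ replicate 1 it was 0.25 for Trem1.

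The responses of P10 and P1 hearts at day 7 were compared as a difference of differences. It lay between -0.48 (Treml1, SE 0.90) and 0.52 (Trem2, SE 0.64) on the log2 scale. Of the 7 members 2 were above 0 with a median of -0.06, and 0 were called or had an unadjusted p under 0.05. By limma-trend 1 of 7 was above 0 with a median of -0.32, and again 0 were called or had an unadjusted p under 0.05. Over all windows the median was 0.10 (0.02 by limma-trend) and 0 were called by either tool. An unadjusted p under 0.05 was found for 0.894% of all windows by limma voom and 1.63% by limma-trend. For Trem1 the difference of differences was -0.17 with a 95% interval of -1.47 to 1.12. With the replicate number as a block, 1 of 7 members was above 0, the median was -0.29, 0 were called and 1, Tyrobp, had an unadjusted p under 0.05 by limma voom at -0.48 (SE 0.23), as had 8.14% of all windows. In these 4 comparisons 0 of the 12 cluster bins tested were called, as were 0% of the 28755 bins of the genome, and the 1 cluster bin with an unadjusted p under 0.05 was found in MI against sham at P1 day 7, by both tools, as had 3.92% of all bins by limma voom and 4.71% by limma-trend. With the replicate block 2 cluster bins had one there, and 7.50% of all bins. In MI against sham at P10 day 7 the block also gave 2 cluster bins, with 5.48% of all bins, where limma voom without it gave 0 cluster bins.

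Sham hearts of the 2 ages were compared at day 7. The means of the 4 receptors at the left of the cluster were lower at P10 than at P1, without passing the adjusted threshold. Over the cluster, P10 sham libraries ranged from 96.7 to 203 CPM (median 124.7) and P1 sham libraries from 104 to 326 CPM (median 287), and the 5 P1 libraries other than the shallowest, at 48044 pairs, were all above the highest P10 library. Trem1 had means of 26.4 ± 15.1 CPM at P10 and 57.1 ± 33.9 at P1, a log2 difference of -1.09 (95% interval -2.10 to -0.09, adjusted p = 0.643). Trem3 had 32.3 ± 8.25 and 78.6 ± 30.8 CPM, a log2 difference of -1.23 (-2.05 to -0.42, adjusted p = 0.360). Treml4 had 31.8 ± 6.66 and 77.8 ± 25.7 CPM, a log2 difference of -1.28 (-2.12 to -0.44, adjusted p = 0.357). Treml2 had 25.2 ± 14.0 and 56.7 ± 29.6 CPM, a log2 difference of -1.23 (-2.29 to -0.16, adjusted p = 0.610).

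These 4 had an unadjusted p under 0.05 by limma voom, 3 had one by limma-trend, and 0 were called by either. Of all windows 0.00667% were called, and 7.24% had an unadjusted p under 0.05. Trem2, at 29.1 ± 16.0 and 39.9 ± 23.5 CPM, had a log2 difference of -0.58 (SE 0.46) and Treml1 one of -0.70 (SE 0.65). Tyrobp did not follow, with 235 ± 54.4 CPM at P10 and 209.98 ± 53.7 at P1 and a log2 difference of 0.14 (SE 0.27). The median over the members was -1.09 and over all windows 0.01. All 12 cluster bins tested were below 0 in this comparison, with a median of -1.10 against 0.08 over all bins, 5 had an unadjusted p under 0.05 (6 by limma-trend) and 0 were called. Of all bins 10.6% had an unadjusted p under 0.05 (9.96% by limma-trend) and 0.0174% were called. The bin at the Trem3 start had the largest difference in log2, -2.28 (SE 0.65, adjusted p = 0.0980 by limma voom), followed by that inside Treml4 at chr17:48270001-48275000 with -1.80 (SE 0.64), and the Trem2 start was at -0.32 (SE 0.51). Resident macrophage genes went the other way: all 5 had a difference above 0, each with an unadjusted p under 0.05 and none called, with a median of 1.38, and their summed CPM was 583 ± 103 at P10 and 225 ± 70.1 at P1. The monocyte and granulocyte list stood at 108 ± 36.0 and 122 ± 46.9 CPM, with 5 of 5 genes below 0 (median -0.27). Both classical monocyte genes were below 0 (median -0.80), 1 with an unadjusted p under 0.05, and summed to 79.5 ± 13.3 and 98.5 ± 54.8 CPM. Of the Ly6c-low monocyte genes other than Treml4, 2 of 3 were below 0 (median -0.16), 1 with an unadjusted p under 0.05, and they summed to 400.3 ± 75.1 and 507 ± 72.0 CPM. Platelet and megakaryocyte genes were above 0 in 4 of 4 tested (median 1.25), 2 with an unadjusted p under 0.05, and summed to 247 ± 39.1 and 141 ± 35.9 CPM. Non-leukocyte genes were below 0 in 4 of 5 tested (median -0.32), and Arg1 macrophage genes other than Trem2 in 3 of 4 (median -0.25). Limma voom called none of these genes, and limma-trend called 1, the platelet chemokine gene Ppbp, at 2.33 (SE 0.45, adjusted p = 0.0486). Their part in the Trem values was not tested. Without P1 IZ replicate 2, which leaves in that group the library of 48044 pairs, the log2 difference was -0.39 for Trem1, -0.49 for Treml2 and -0.0064 for Trem2, and without P10 IZ replicate 1 it was -0.69 for Trem1. The share of pairs in enriched bins was 43.2 to 64.1% in P10 sham and 35.6 to 59.8% in P1 sham libraries, and its part was not tested. For Trem3 and Treml4 the log2 difference lay between -1.44 and -1.05 whichever library was left out. The day 7 sham libraries of P10 and P1 had been run on different flow cells, apart from 1 shared by those numbered 1, so flow cell and age cannot be told apart. In the fit that takes the replicate number as a block, 2 members were called in this comparison, Trem3 and Treml4, among 816 called of the 14996 windows, as given under the dependence on processing.

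**Figure D4:**
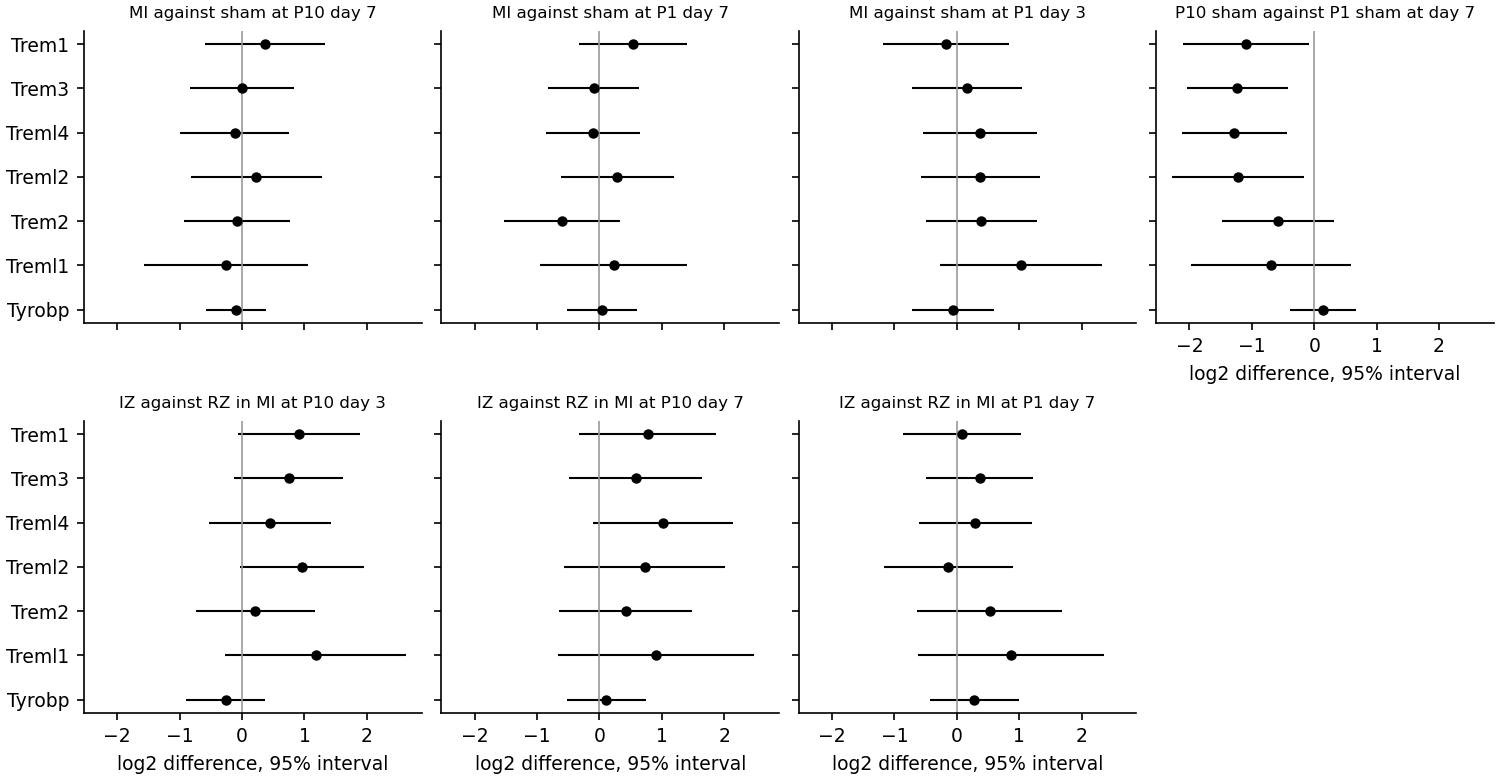
Fitted log2 differences of the 7 members (points) with 95% intervals (lines) in 7 tested comparisons, on a shared horizontal axis. Intervals of Trem1, Trem3, Treml4 and Treml2 lie wholly below 0 for P10 sham against P1 sham at day 7. Every interval drawn for MI against sham crosses 0. MI against sham at P10 day 3, which chose the members, is not drawn, and the fit is the one without the replicate block.

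Between zones of MI hearts, most members had a higher fitted value in IZ than in RZ, with no call. The MI libraries of P10 day 3 also entered the choice of the members, so their zone comparison is not independent of that choice. At P10 day 3, cluster means were 457 CPM in IZ, 433 in BZ and 208 in RZ, and in sham 206, 198 and 97.3 CPM, so the sham positions had the same order, which was not tested. Log2 differences of IZ and RZ in MI were 0.91 (SE 0.50) for Trem1, 0.96 (SE 0.51) for Treml2, 0.75 (SE 0.45) for Trem3 and 1.18 (SE 0.74) for Treml1, and -0.26 (SE 0.32) for Tyrobp. Here 6 of 7 members were above 0, 0 were called and 0 had an unadjusted p under 0.05 by either tool, as 0% of all windows were called. Of the cluster bins 0 were called, 0.00348% of all bins were, and 0 had an unadjusted p under 0.05. An unadjusted p under 0.05 was found for 6.88% of all windows by limma voom and 6.05% by limma-trend. For all bins these shares were 7.42% and 6.56%. The monocyte and granulocyte genes were above 0 in 5 of 5 (median 1.57) and the resident macrophage genes below 0 in 5 of 5 (median -1.19). Of these, 3 and 4 genes had an unadjusted p under 0.05 by limma voom. Sort marker and macrophage genes were below 0 in 4 of 5 (median -0.53) and platelet genes in 3 of 4 tested (median -0.50). Non-leukocyte genes were above 0 in 3 of 5 tested (median 0.62) and Arg1 macrophage genes other than Trem2 in 3 of 4 (median 0.14). Each of these 2 lists had 1 gene with an unadjusted p under 0.05 by limma voom. The part of all these was not tested. Without IZ replicate 3 the difference was 0.27 for Trem1, 0.19 for Trem3 and 0.16 for Treml2, and without IZ replicate 2 it was 1.71, 1.47 and 2.00. Without RZ replicate 2 it was 1.71 for Trem1. For Treml1 it was 0.18 without RZ replicate 3 and 2.4999 without RZ replicate 2, and 0.68 and 1.69 without IZ replicates 3 and 2. At P10 day 7, 7 of 7 members were above 0 with a median of 0.72 against -0.01 over all windows, and at P1 day 7 6 of 7 with a median of 0.30 against -0.07. The monocyte and granulocyte genes were above 0 in 5 of 5 at P10 day 7 (median 0.87, 1 with an unadjusted p under 0.05), as were 3 of 3 Ly6c-low monocyte genes other than Treml4 (median 0.23). Resident macrophage genes were below 0 there in 5 of 5 (median -0.26) and platelet genes in 4 of 4 tested (median -0.58). At P1 day 7 the monocyte and granulocyte genes were above 0 in 2 of 5 (median -0.18) and the resident macrophage genes below 0 in 4 of 5 (median -0.49). The part of these lists was not tested. In neither was a member or a cluster bin called, as 0% of windows and of bins were. An unadjusted p under 0.05 was found for 0 members in both, and for 2 cluster bins at P10 day 7 (3 by limma-trend) and 0 at P1 day 7. At P10 day 7 the share was 5.36% over all windows and 6.48% over all bins (5.72% by limma-trend). At P1 day 7 it was 3.29% over all windows and 3.90% over all bins (10.8% and 8.48% by limma-trend). Without RZ replicate 1 of P10 day 7 the difference was 0.054 for Trem1 and 0.059 for Trem3.

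Across the 8 arms of age, surgery and day, each averaged over its libraries, the mean of Trem1 was highest in P1 MI day 7 at 95.7 ± 42.3 CPM and P10 MI day 3 at 94.6 ± 52.5, and lowest in P10 sham day 7 at 26.4 ± 15.1. The top of this order depended on the averaging: with the pairs of an arm pooled before scaling, which gives the 3 shallow libraries numbered 2 of P1 MI day 7 less weight, Trem1 had 76.0 CPM in P1 MI day 7 and 102 in P10 MI day 3. Most neighbours in the order of means differed by less than their spread. For Trem1, Trem2, Treml1 and Tyrobp no gap between neighbouring arms was larger than both of their SD. For Trem3 and Treml4 the gap that was larger lay below P1 sham day 3 (59.0 ± 3.36 and 55.3 ± 9.71 CPM), the lowest P1 arm, and for Treml2 below P10 sham day 3 (45.5 ± 14.7 CPM). The whole cluster had its gap at the same place as Trem3, between 246 ± 43.1 CPM in P1 sham day 3 and 167 ± 62.3 in P10 sham day 3. Trem2 had its highest arm mean in P1 MI day 3, at 58.8 ± 12.6 CPM, and its lowest in P10 MI day 7, at 27.4 ± 11.4. Tyrobp had arm means between 197 ± 27.8 CPM (P1 MI day 3) and 268 ± 134 CPM (P1 MI day 7), but pooled it had 205 CPM in P1 MI day 7 and was highest in P10 MI day 3, at 259 CPM.

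**Figure D5:**
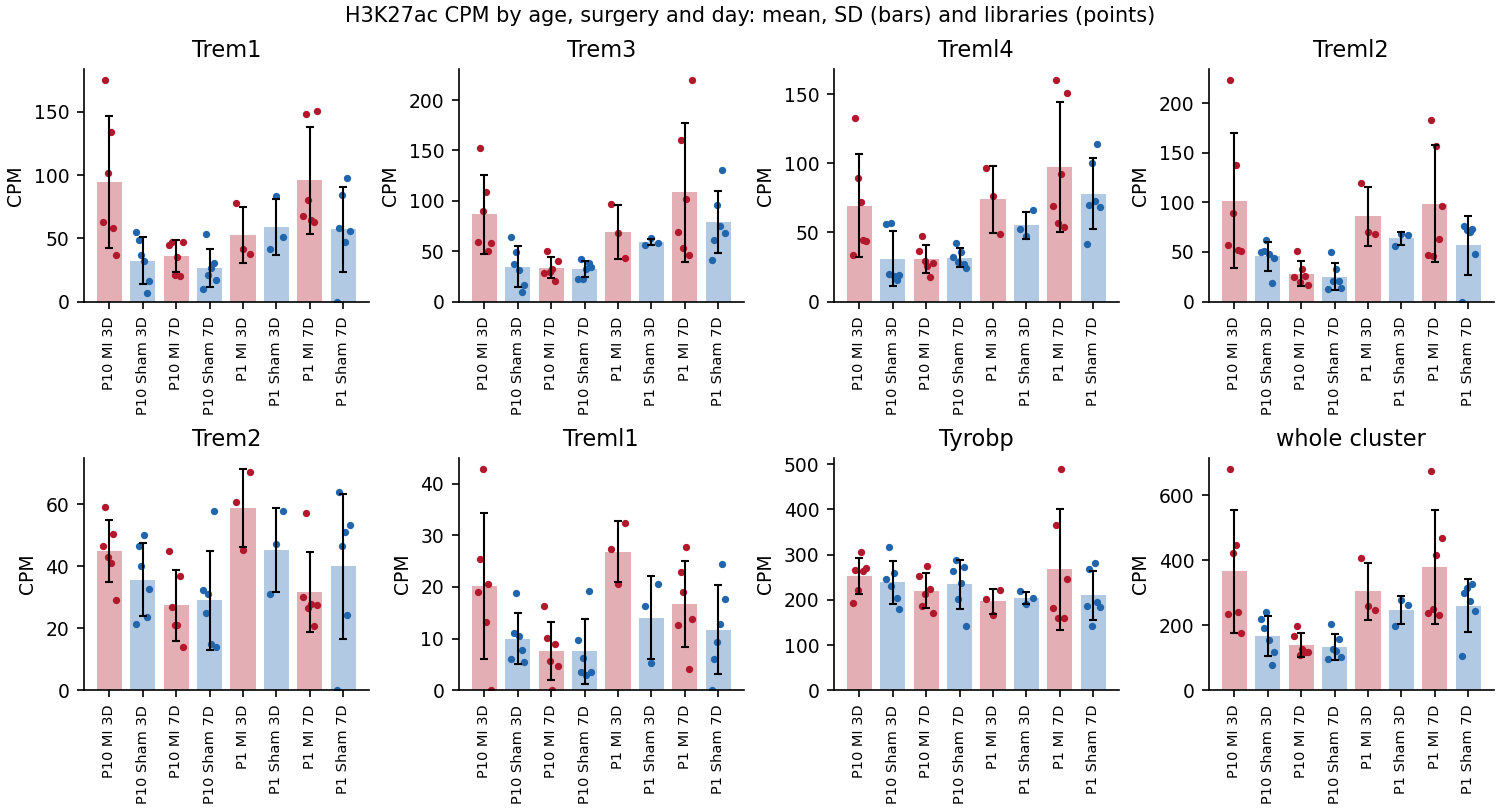
H3K27ac CPM (vertical axes, linear, starting at 0) of each member and of the whole cluster in the 8 arms, as means (bars), SD (lines) and single libraries (points), MI red and sham blue. Trem1, Trem3, Treml4 and Treml2 are low in the 3 P10 arms other than MI day 3, while Tyrobp is between 197 and 268 CPM in every arm.

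Per kb of window, and averaged over the 24 groups, the level was 9.58 CPM per kb for Tyrobp, 2.02 for Trem3, 1.91 for Treml2, 1.88 for Treml4, 1.66 for Trem1, 1.41 for Trem2 and 0.53 for Treml1. Over the groups Trem1 ranged from 11.45 to 119 CPM and Tyrobp from 167 to 324. Hcst, inside the Tyrobp window, had 10.7 CPM per kb in its own.

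By Pearson's r of log2(CPM + 1) with the cluster over the 24 group means, among the 7354 windows that averaged 20 pairs or more, the most alike outside the locus were F7 (r = 0.93), Itpr1 (0.92), Fgr (0.92), F10 (0.92) and Gcnt2 (0.92). F7 and F10 encode coagulation factors and are neighbours whose windows overlap, Fgr encodes a SRC family kinase of myeloid cells, Itpr1 an intracellular calcium channel and Gcnt2 a glycosyltransferase. The median r over the windows was -0.11. F7 had arm means of 108 CPM in P10 MI day 3, 36.7 in P10 sham day 3, 32.6 in P10 MI day 7 and 173 in P1 MI day 7. Trem1, Trem3, Treml4 and Treml2 had r between 0.91 and 0.95, but share their pairs with the cluster, and Tyrobp, which does not, had r = 0.13. The groups differ in depth and share numbered pools, and r is given as a description.

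Other genes of the pathway were counted as lists over the 8 tested comparisons, in which 0 genes of the 4 lists were called by limma voom or limma-trend. Of all windows over these comparisons, 3.44% of 119968 values had an unadjusted p under 0.05 by limma voom, and the lists hold few values to set beside it. Of 10 adaptor and ITAM signalling genes (Hcst, Fcer1g, Syk, Btk, Vav1, Plcg2, Card9, Lat2, Inpp5d and Ptpn6), 2 of 80 values had an unadjusted p under 0.05 by limma voom and 1 by limma-trend. In P10 sham against P1 sham at day 7 each list had 1 such gene, here Plcg2, a phospholipase of this pathway, with a log2 difference of -0.92 (SE 0.24). Syk, the kinase that binds the TYROBP motif, was at 0.08 (SE 0.25) there. For 5 other receptors that use TYROBP (Clec5a, Siglech, Cd300lb, Pilrb1 and Csf1r) the counts were 2 of 40 and 2, and Siglech, a receptor of plasmacytoid dendritic cells and some macrophages, was at 0.94 (SE 0.43) in the same comparison. For 6 tested ligands and sheddases (Pglyrp1, Hmgb1, Apoe, Lgals3, Adam10 and Adam17, with Clu too low to test) they were 3 of 48 and 2, and Lgals3, which encodes galectin-3, was at -0.62 (SE 0.28). For the 10 tested genes of the lipid-associated macrophage programme, which TREM2 is known to govern in other tissues, they were 4 of 80 and 3, and the integrin gene Itgax was at -1.33 (SE 0.51). In MI against sham at P10 day 7 the medians of the 4 lists were -0.14, -0.19, 0.10 and 0.14, in the order given here, against -0.05 over all windows.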

How the data were processed

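Processed files of 42 libraries were used, and 6 further samples of other stages were not analysed here. The deposited BED files list 1 aligned read per line with its mapping quality score, made by the authors. According to the submitters' processing notes and the study's methods, reads were aligned to mm10 with Bowtie2 after adapter trimming, low mapping qualities and Picard duplicates were removed, and MACS2 and deepTools served later steps. From these files unique read pairs were counted by own scripts per gene with 10 kb on each side (GENCODE M21) and per 5 kb bin. Repeated lines, which made up 9.67 to 32.2% of the lines in the 18 libraries numbered 2 and 0 in the others, were counted once. Groups came from the sample titles, and members and gene lists were chosen with earlier results of these data known.

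Windows that averaged 5 pairs or more and bins that averaged 3 or more were tested by limma voom (limma 3.58.1, R 4.3.3) in 1 fit over 24 group means, with the pool of hearts (age, day, surgery and number) as a random block, all unique pairs as library size, and Benjamini-Hochberg adjustment at 0.05. The 95% intervals are normal ones from the SE. MI against sham is the mean over 3 zones. The design had foreseen deposited counts. Alternatives were enriched-bin library sizes, no filter, limma-trend, the replicate number as a block, complete pairs, the study's gene span, shifted bins and leaving out libraries. The code was tested on simulated data. Named elements are the 5 bins highest in mean CPM and the 5 with the largest difference of MI and sham at P10 day 3, and the genes named as alike are the 5 highest in r. Libraries of MI and sham with the same number of the same zone shared flow cells, but in BZ and RZ of P1 day 7 number 1 they had only 1 flow cell in common.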

Additional observations from a re-analysis of the deposited data

Results flagged for a closer look

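Of 48 sets of 6 libraries of 1 arm (7 members and the cluster in 6 arms, where chance singles out about 1 set in 20), 3 had an extreme library whose gap to the next exceeded Dixon's 95% critical share of the range. In P1 sham day 7, IZ replicate 1 had 0 CPM over Treml2, with the next library at 48.2 CPM, and 104 CPM over the cluster, with the next at 243 CPM. This library had 48044 pairs, the fewest of all, so a count of 0 allows up to 62.4 CPM, and its cluster value rests on 5 pairs. In P1 MI day 7, IZ replicate 2 had 57.2 CPM over Trem2, with the next library at 30.0 CPM, and this value also rests on 5 pairs. Why these libraries stood apart was not tested.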

How the results depend on the processing

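Over the 8 tested comparisons, the counts of called members and cluster bins stayed at 0 under every alternative except in P10 sham against P1 sham at day 7. There the replicate block, with the number within age and day as a fixed term, called 2 members, Trem3 at -1.05 (adjusted p = 0.0473) and Treml4 at -1.15 (adjusted p = 0.0354, limma voom), and 2 cluster bins, while 816 of all windows were called with the block against 1 without, and 1001 bins against 5. The block cannot pair libraries across ages. Same-numbered MI and sham libraries had correlations of deviations between 0.015 and 0.086 at P10 day 3. They lay between 0.030 and 0.23 at P10 day 7 and between 0.13 and 0.26 at P1 day 7. The numbers were taken to pair the samples at P1 day 7 and not at P10, but no fit paired P1 day 7 alone. The main fit, which gave the plot of fitted differences of the members, had no replicate block at either age. The block fit carried the number at P10 as well. For MI against sham at P1 day 7 the median over the members was 0.04 in the main fit and 0.37 with the block. An unadjusted p under 0.05 by limma voom was found for 0 and 3 members. The values of P10 and P1 at day 7 overlap and do not settle this choice, and same-numbered MI and sham libraries of P10 shared flow cells. The replicate block changed no other call among the members and cluster bins tested. Library sizes from enriched bins called 1 cluster bin in this comparison, with 49 windows and 477 bins in all. Over all windows the count was 12 with complete pairs, 4 by limma-trend and 0 with no filter, and over all bins 0 with complete pairs or no filter, 3 by limma-trend and 1 with shifted bins. Leaving out 1 library at a time gave 0 to 1 cluster bins in this comparison, the 1 without P10 sham IZ replicate 2. Among 19 differences of members followed, that of Treml1 between IZ and RZ at P1 day 7 turned from 0.86 to -0.023 with the study's span and lay between -0.15 (without RZ replicate 1) and 1.5003 when 1 library was left out, and the cause was not tested.

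The cluster's log2 difference at P10 day 3 lay between 1.00 and 1.09 over the settings and between 0.84 (without MI IZ replicate 3) and 1.37 (without MI IZ replicate 2) when 1 library was left out. Depth limits single members most: at 48044 pairs a count of 0 allows 62.4 CPM, above the mean of Trem1, Treml4, Trem2 and Treml1 over the 24 groups.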
